A study of Mus musculus with 6 samples.

Results

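The 10 genes described here encode receptors for neuropeptides in mouse prefrontal cortex: Oxtr for oxytocin, Npy1r and Npy2r for neuropeptide Y, Sstr1 and Sstr2 for somatostatin, Oprm1, Oprk1 and Oprd1 for opioid peptides, Vipr1 for vasoactive intestinal peptide and Cckbr for cholecystokinin. They were picked out by gene symbol, and all 10 were found among the 23284 genes of the deposited count table. RNA sequencing of poly(A)-selected RNA was done on 3 libraries from single-housed and 3 libraries from group-housed animals, after 6 days of housing. All 6 came from wild-type C57BL/6 mice of 8 to 10 weeks, with no transgene, deletion or drug in either group, so that the housing is what differs by the labels. The labels assign no animal to a library, so an error below is the spread between libraries, which may be technical in part.

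Neuropeptides are cut from larger precursors, released from dense-core vesicles, and act slowly and at a distance on G protein-coupled receptors. Most receptors in this group (the neuropeptide Y, somatostatin and opioid receptors) couple to Gi/o proteins, lower cyclic AMP and open GIRK potassium channels. The oxytocin and cholecystokinin B receptors couple mainly to Gq, and the VIP receptor to Gs. In the cortex most of the peptides come from inhibitory interneurons, while oxytocin arrives in axons from the hypothalamus.

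Promoter windows from RefSeq (GRCm38.p6) show what lies upstream of these genes, each running from 250 bases before to 50 bases after the annotated start. Npy2r is shown because it was the gene whose housing groups did not overlap, Oxtr because its receptor is known for its part in social behaviour, and Sstr2 because its window alone among those matched held a complete cyclic AMP response element. Capitals mark the element TGACGTCA in Sstr2 and the E-box CACGTG in Oxtr; both read the same on both strands, and neither was found in the window of Npy2r.
Npy2r, chr3:82548036-82548335, minus strand: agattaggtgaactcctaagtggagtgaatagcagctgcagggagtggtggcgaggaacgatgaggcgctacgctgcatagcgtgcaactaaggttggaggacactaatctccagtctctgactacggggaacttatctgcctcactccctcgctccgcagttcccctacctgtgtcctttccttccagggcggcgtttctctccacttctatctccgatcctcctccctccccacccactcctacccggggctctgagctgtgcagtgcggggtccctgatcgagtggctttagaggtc
Oxtr, chr6:112489776-112490075, minus strand: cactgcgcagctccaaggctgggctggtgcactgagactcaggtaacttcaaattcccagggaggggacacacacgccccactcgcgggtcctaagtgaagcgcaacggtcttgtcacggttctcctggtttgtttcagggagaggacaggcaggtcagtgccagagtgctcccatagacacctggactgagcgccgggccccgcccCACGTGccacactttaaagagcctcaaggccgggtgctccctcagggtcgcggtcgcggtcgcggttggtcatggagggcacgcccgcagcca
Sstr2, chr11:113619077-113619376, plus strand: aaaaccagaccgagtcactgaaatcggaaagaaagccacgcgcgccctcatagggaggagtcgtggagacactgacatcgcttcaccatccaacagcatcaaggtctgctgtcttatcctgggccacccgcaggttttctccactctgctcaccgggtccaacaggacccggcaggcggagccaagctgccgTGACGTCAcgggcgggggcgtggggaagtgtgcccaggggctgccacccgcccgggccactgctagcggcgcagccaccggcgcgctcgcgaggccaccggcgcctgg
Windows were matched for 8 of the 10 genes, all but Sstr1 and Oprk1. TGACGTCA began 58 bases upstream of the start of Sstr2 and occurs in 1.79% of all 32851 promoter windows of this length. CACGTG began 43, 86 and 106 bases upstream of Oxtr, Oprd1 and Cckbr and occurs in 7.15% of all windows. These are matches of letters only, and no binding was measured.

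None of the 10 receptor genes passed the test for a difference with housing. All 10 had enough counts for edgeR's quasi-likelihood test. Of them 0 had an adjusted p under 0.05 (adjusted p = 0.9999 for each), as did 0 of the 15258 genes tested (0%). At an unadjusted p under 0.05 edgeR gave 238 genes, of which 0 were receptors of this group; DESeq2 called 8 genes over the whole table and limma-voom 0, and neither called any of the 10. Of the 10, 5 had a level above and 5 a level below that of group-housed mice, with a median log2 difference of 0.05; over all genes tested 50.7% lay above 0 and the median was 0.0015. The groups of libraries did not overlap for 1 of the 10, where 4.86% of all genes tested showed no overlap. Levels are in CPM, counts scaled to a common library total after TMM scaling, and differences are log2 values of single-housed minus group-housed with a standard error (SE) and a 95% interval. Values listed for a group follow the order of its replicates 1, 2 and 3.

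**Figure D1:**
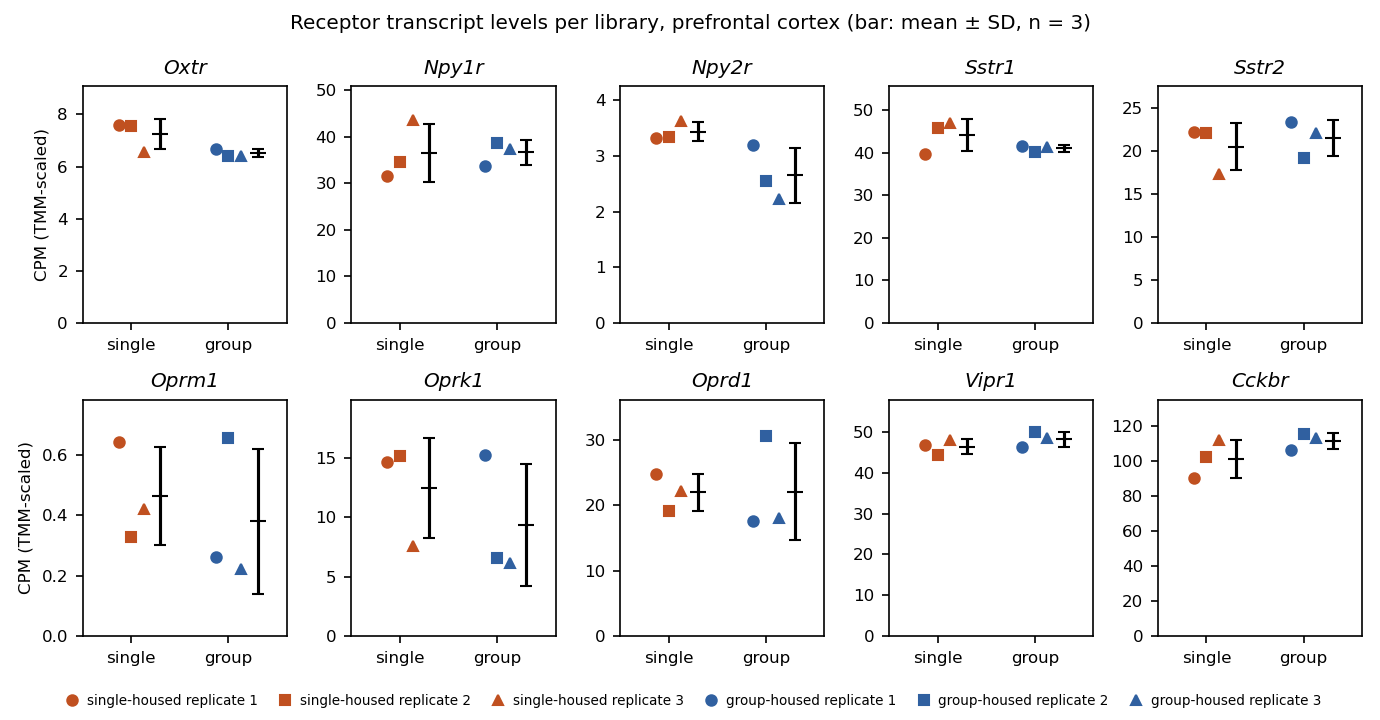
Level of each receptor gene (y axis, CPM after TMM scaling, from 0) in the 3 single-housed (orange) and 3 group-housed (blue) libraries, with symbols for replicates and a black mark for the mean ± SD. Npy2r is the panel in which all single-housed points (3.33 to 3.63 CPM) lie above all group-housed points (2.22 to 3.19 CPM); Oprk1 splits within both groups.

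Total counts of the libraries ran between 25858355 and 33428512, and group-housed replicate 1 was the shallowest. Markers of cortical excitatory neurons were present throughout: the glutamate transporter gene Slc17a7 had 1908 to 2135 CPM in the libraries from single-housed mice, against 1992 to 2169 CPM in those from group-housed mice. Markers of striatal projection neurons, cells of the region beneath the frontal cortex, were uneven. The summed level of 18 striatal genes reached 3315, 1700 and 730 CPM for single-housed mice, given in the order of replicates 1 to 3, against 1629, 775.7 and 862.8 CPM for group-housed mice. Single-housed replicates 1 and 2 and group-housed replicate 1 had the highest sums. They are called striatum-rich below, a name that stands for marker level only. In bulk tissue fewer cells of a type and less RNA per cell cannot be told apart.

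The oxytocin receptor gene Oxtr (chromosome 6, 112423678 to 112439802, minus strand, mm9) was expressed at a low level in all libraries. It had 7.60, 7.56 and 6.57 CPM in single-housed mice, from 249, 253 and 219 counts, against 6.69, 6.42 and 6.41 CPM in group-housed mice, from 178, 196 and 202 counts. Single-housed replicate 3 fell within the range of the group-housed libraries, so the groups overlapped, and the group-housed libraries were close to one another. The mean was 7.25 ± 0.587 CPM against 6.51 ± 0.158 CPM (SD, n = 3 each), a log2 difference of 0.16 (SE 0.111, interval −0.098 to 0.41). The interval includes 0. Leaving out any 1 library gave differences of 0.12 to 0.22. Oxtr was highest in the striatum-rich libraries. With the mean log2 CPM of the 18 striatal genes as a covariate the difference was 0.0996 (SE 0.118). The oxytocin gene itself, Oxt, had 1 to 2 counts in single-housed and 2 to 3 counts in group-housed libraries, at or under a floor of 3 counts, so it was not tested and no ratio is given.

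Among the vasopressin receptors, the nearest relatives of the oxytocin receptor, Avpr1a had 13, 14 and 7 counts in single-housed and 4, 11 and 6 counts in group-housed libraries (log2 difference 0.52, SE 0.449). Avpr1b and Avpr2 had at most 4 counts in a library and were not tested. Per base of gene length, Oxtr made up 88.1% to 92.5% of the transcripts of these 4 receptors in each library. At this depth Oxtr was the member of this small family that could be measured with some precision.

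Of the neuropeptide Y receptor genes, Npy2r had the higher mean in single-housed mice and Npy1r had level means. Npy2r (chromosome 3, 82342305 to 82352007, minus strand), which encodes a receptor known mostly as a presynaptic autoreceptor, had 3.33, 3.35 and 3.63 CPM in single-housed mice, from 109, 112 and 121 counts, against 3.19, 2.55 and 2.22 CPM in group-housed mice, from 85, 78 and 70 counts. Each single-housed library lay above each group-housed library, though single-housed replicate 1 and group-housed replicate 1 were nearly level. The mean was 3.44 ± 0.168 against 2.66 ± 0.494 CPM (SD, n = 3 each), 1.30-fold higher on the fitted scale (log2 difference 0.38, SE 0.168, interval −0.0077 to 0.76; adjusted p = 0.9999 by edgeR's quasi-likelihood test). It had the smallest unadjusted edgeR p of the 10 genes, at rank 264 of the 15258 tested. Leaving out 1 library at a time gave 0.26 to 0.53, and with the striatal marker mean in the model the difference was 0.36 (SE 0.180). It was 0.41 (SE 0.168) with the balance of long and short genes, defined below for Oprd1 and added after the values were seen. Without the 3 striatum-rich libraries, which leaves 1 single-housed against 2 group-housed, it was 0.60. No alternative called Npy2r.

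Npy1r (chromosome 8, 69221321 to 69230697, plus strand), the mainly postsynaptic neuropeptide Y receptor gene, had 31.6, 34.5 and 43.6 CPM in single-housed mice, against 33.7, 38.8 and 37.5 CPM in group-housed mice. The single-housed libraries held both the lowest and the highest value. Means were 36.6 ± 6.27 and 36.6 ± 2.64 CPM (log2 difference −0.0029, SE 0.124, interval −0.29 to 0.28). Npy1r was lowest in the striatum-rich libraries, and its difference was 0.105 (SE 0.0784) with the striatal marker mean in the model. Npy5r, the third receptor gene of the family with a measurable level, averaged 6.12 ± 0.951 CPM in single-housed mice, against 6.27 ± 0.924 CPM in group-housed mice (log2 difference −0.036, SE 0.158). The ligand gene Npy was at 105.5 ± 10.4 CPM and 106.4 ± 16.0 CPM (−0.011, SE 0.119). Per length, Npy2r held 5.78% to 7.09% of the 3 receptors' transcripts in single-housed and 4.25% to 6.48% in group-housed libraries, with Npy1r at 75.2% to 80.1% over all 6.

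**Figure D2:**
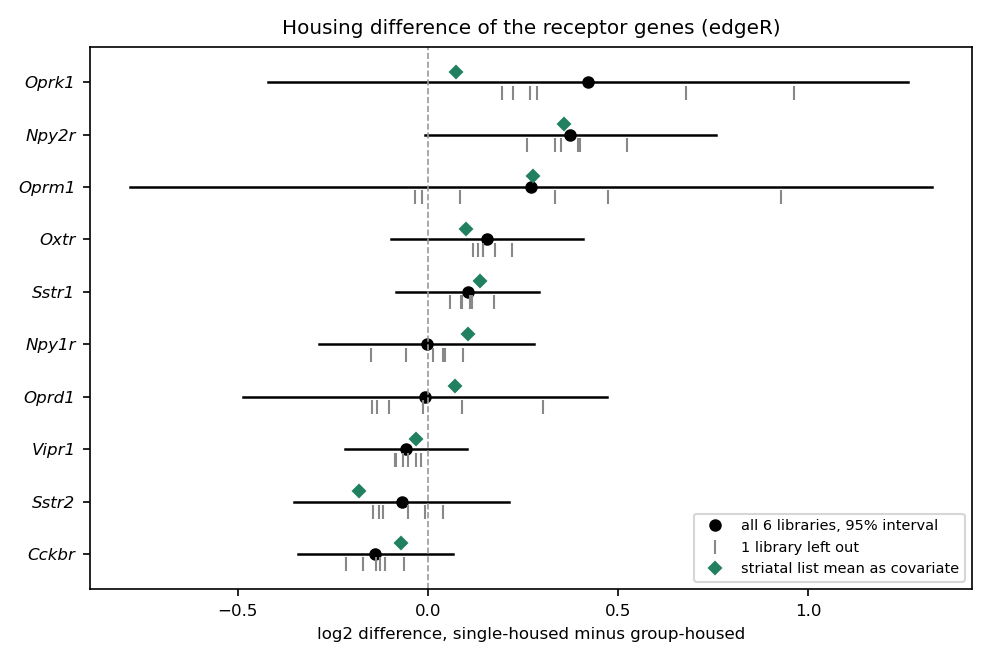
Log2 difference of each receptor gene, single-housed minus group-housed (x axis), from edgeR. Black points and lines give the estimate and 95% interval over 6 libraries, grey ticks the estimates with 1 library left out, and green diamonds the estimate with the striatal marker mean as a covariate; every interval crosses 0, and Oprk1 is at 0.073 with the covariate and at 0.42 without it.

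The somatostatin receptor genes Sstr1 and Sstr2 both encode Gi/o-coupled receptors that dampen firing. Sstr1 (chromosome 12, 59312791 to 59317023, plus strand) had 39.8, 45.7 and 47.0 CPM in single-housed mice, against 41.6, 40.1 and 41.5 CPM in group-housed mice. Single-housed replicate 1 was the lowest of all 6 libraries and the other single-housed libraries were the highest, for a log2 difference of 0.10 (SE 0.0829, interval −0.084 to 0.29). Sstr2 (chromosome 11, 113485571 to 113486950, plus strand) had 22.1, 22.1 and 17.3 CPM in single-housed mice, against 23.3, 19.2 and 22.0 CPM in group-housed mice. The groups overlapped and the log2 difference was −0.069 (SE 0.124, interval −0.35 to 0.21). Sstr2 was highest in the striatum-rich libraries, by a small margin. Its difference was −0.18 (SE 0.0954) with the striatal marker mean in the model.

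Sstr3 averaged 46.0 ± 5.66 CPM in single-housed mice, against 48.7 ± 2.61 CPM in group-housed mice, and Sstr4 10.6 ± 1.23 and 10.5 ± 2.28 CPM (SD, n = 3 each). Sstr5 had 3 to 13 counts in a library and was not tested. The peptide gene Sst was at 256 ± 4.46 CPM against 274 ± 58.9 CPM, with group-housed replicate 1 highest at 341.8 CPM, and the related Cort (cortistatin) at 7.22 ± 1.19 against 7.09 ± 0.983 CPM. Per length, 4 receptors shared the family in every library: Sstr2 held 31.9% to 41.3%, Sstr3 21.2% to 27.8%, Sstr1 21.2% to 26.0% and Sstr4 11.9% to 18.8%. These shares depend on the deposited gene lengths, which are 1158 bases for Sstr2, against 2143 exon bases in GENCODE M21 (GRCm38), and 3869 bases for Sstr1, against 2046.

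The opioid receptor genes Oprk1, Oprm1 and Oprd1 were the most variable of the 10, Oprm1 from only 7 to 21 counts. Oprl1, an opioid-family gene outside the 10 that is described below, was steadier (SD of log2 CPM 0.0991). Oprk1 (chromosome 1, 5578574 to 5596214, plus strand), which encodes the kappa receptor for dynorphins, had 14.7, 15.1 and 7.59 CPM in single-housed mice, from 480, 505 and 253 counts, against 15.3, 6.58 and 6.19 CPM in group-housed mice, from 406, 201 and 195 counts. Of the 6 libraries 3 sat near 15 CPM and 3 between 6.19 and 7.59 CPM, and the split cut through both housing groups. The mean was 12.5 ± 4.21 against 9.34 ± 5.13 CPM (SD, n = 3 each), a log2 difference of 0.42 (SE 0.370, interval −0.42 to 1.26). Over the 6 libraries its log2 CPM had an SD of 0.633, above that of 98.4% of all genes tested.

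The libraries with high Oprk1 were single-housed replicates 1 and 2 and group-housed replicate 1, the same that were rich in striatal markers. Oxtr and Sstr2 were also highest in those 3 libraries, and Npy1r, Vipr1 and Cckbr were lowest in them. The margin was small for Oxtr (6.69 against 6.57 CPM) and Sstr2 (22.06 against 22.01 CPM). Npy2r, Sstr1, Oprm1 and Oprd1 did not split this way. The mean log2 CPM of the 18 striatal markers was 6.47, 5.40 and 3.14 for single-housed mice, in the order of replicates, against 5.33, 3.19 and 3.70 for group-housed mice. The mean of 5 claustrum markers (Nr4a2, Gnb4, Ntng2, Lxn and Synpr) was 5.52, 5.45 and 4.82 against 5.30, 4.94 and 4.95, with the same 3 libraries highest. The mean of 5 oligodendrocyte markers was 8.63, 8.58 and 7.55 against 9.004, 7.52 and 8.23, again highest in those 3. Olfactory bulb markers averaged 1.98, 2.14 and 1.47 against 1.80, 1.76 and 1.46, also highest in those 3, at low levels. This mean covers the 3 tested genes of 5 listed, since Tbx21 and Eomes had too few counts. Of the tested genes only Cdhr1 was highest in those 3 libraries, and Doc2g and Sp8 were not. Cortical excitatory markers averaged 6.84, 6.92 and 7.04 against 6.79, 7.04 and 7.08, lowest in those 3. Lists of interneuron, endothelial, microglial and astrocyte markers did not split this way. With the striatal mean as a covariate the log2 difference of Oprk1 was 0.073 (SE 0.192), with the claustrum mean, added after the values were seen, 0.051 (SE 0.186), and without the 3 striatum-rich libraries, which leaves 1 single-housed against 2 group-housed, 0.25 (SE 0.201). Leaving out 1 library at a time gave values between 0.20 without group-housed replicate 3 and 0.96 without group-housed replicate 1 (SE 0.278; adjusted p = 1 by edgeR), with 0.23 without group-housed replicate 2. With the replicate number as a block the log2 difference of Oprk1 was 0.468 (SE 0.229). It was 0.656 (SE 0.311) with the balance of long and short genes, defined below for Oprd1 and also added after the values were seen. The part of tissue composition in the level of Oprk1, or of the other receptor genes, was not tested beyond these values.

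**Figure D3:**
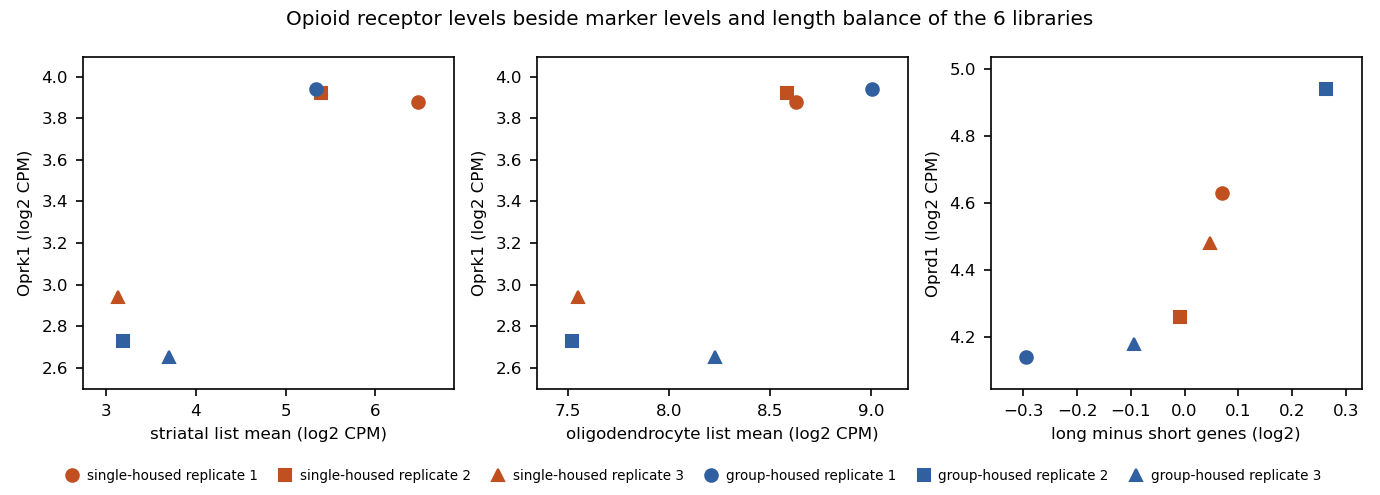
Left and middle: Oprk1 (y axis, log2 CPM) against the mean log2 CPM of striatal and of oligodendrocyte markers, 1 point per library; the high Oprk1 libraries (3.88 to 3.94) are single-housed replicates 1 and 2 and group-housed replicate 1. Right: Oprd1 (log2 CPM) against the balance of long and short genes in each library, from −0.294 in group-housed replicate 1 to 0.263 in group-housed replicate 2.

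Oprd1 (chromosome 4, 131666641 to 131700401, minus strand), which encodes the delta receptor for enkephalins, had 24.8, 19.1 and 22.2 CPM in single-housed mice, against 17.6, 30.7 and 18.1 CPM in group-housed mice. Group-housed replicate 2 stood highest and the other group-housed libraries lowest, so that the single-housed values lay between them. Means were 22.0 ± 2.83 and 22.1 ± 7.41 CPM (log2 difference −0.0079, SE 0.210, interval −0.49 to 0.47). Without group-housed replicate 2 the log2 difference was 0.30 (SE 0.122). The levels of Oprd1 ran with the balance of long and short genes in a library, taken as the median log2 deviation of genes of at least 6255 exon bases minus that of genes of at most 1166. In the order of replicates, this balance was 0.070, −0.0085 and 0.047 for single-housed mice, against −0.294, 0.263 and −0.095 for group-housed mice, and it put the libraries in the same order as Oprd1 did. With it as a covariate, added after the values were seen, the SE of the Oprd1 difference was 0.106 and the difference −0.089; whether RNA length or quality sets the level was not tested.

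Oprm1 (chromosome 10, 3308332 to 3557940, minus strand in the deposited mm9 table), the mu receptor gene, was barely detected. It had 21, 11 and 14 counts in single-housed and 7, 20 and 7 counts in group-housed libraries, or 0.641, 0.329 and 0.420 CPM against 0.263, 0.655 and 0.222 CPM. The groups overlapped, and the interval of the log2 difference, −0.78 to 1.33 around 0.27 (SE 0.464), was the widest of the 10 genes. The deposited row counts 2639 exon bases in 6 blocks, which is 32.8% of the exon bases that GENCODE M21 (GRCm38) lists for this gene over 31 transcripts. It also shares 68 bases with Ipcef1 on the opposite strand. Reads outside the counted blocks do not enter the level of Oprm1, which is therefore a level of this gene model.

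Oprl1, the nociceptin receptor gene and the fourth of the opioid family, averaged 57.8 ± 4.02 CPM in single-housed mice, against 54.1 ± 3.19 CPM in group-housed mice (log2 difference 0.096, SE 0.0806). Per length it held 62.8% to 73.9% of the family's transcripts in each library, with Oprd1 at 18.3% to 28.9%, Oprk1 at 5.30% to 14.1% and Oprm1 at 0.374% to 0.949%, again by the deposited lengths, which for Oprk1 are 51.4% of the GENCODE exon bases. Oprk1 exceeded 12% in the 3 striatum-rich libraries and stayed below 7% in the other 3.

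**Figure D4:**
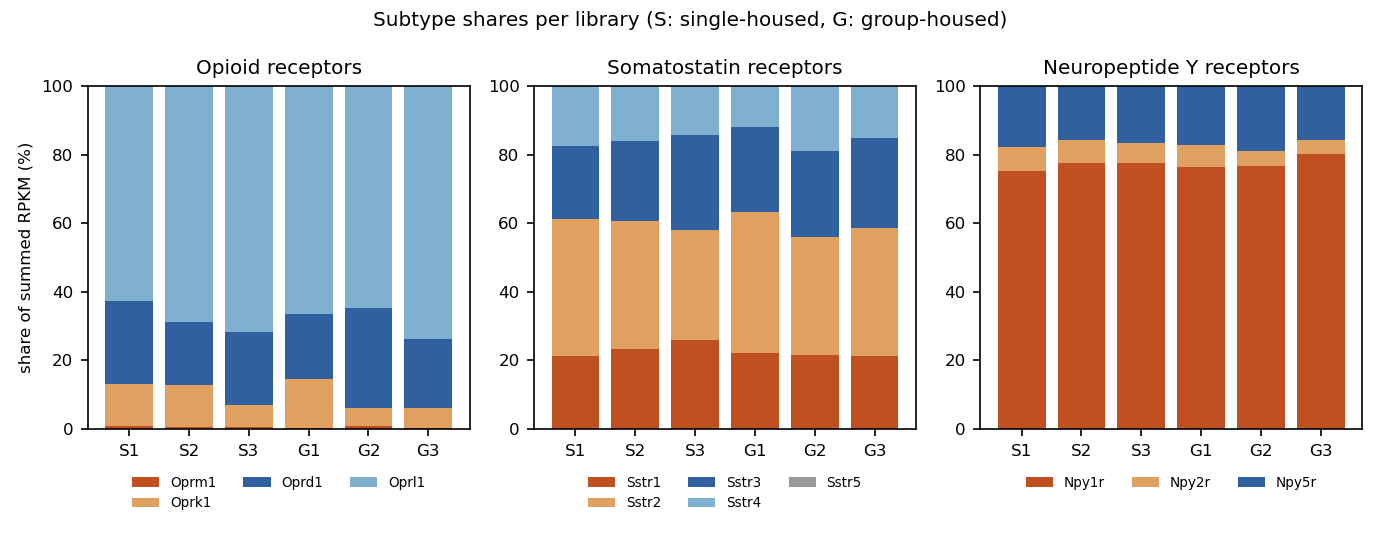
Share of each receptor subtype in the summed RPKM of its family (y axis, percent) in single-housed (S1 to S3) and group-housed (G1 to G3) replicates. The Oprk1 part of the opioid bar is 12.2%, 12.4% and 6.27% in S1 to S3 and 14.1%, 5.30% and 5.83% in G1 to G3, while the Npy1r part of the neuropeptide Y bar stays between 75.2% and 80.1%.

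Of the opioid precursor genes, Penk was high in the same libraries as Oprk1. Penk, the enkephalin precursor, had 319, 163 and 58.1 CPM in single-housed mice, against 166, 53.5 and 57.3 CPM in group-housed mice (log2 difference 0.97, SE 0.598). It was high in the 3 striatum-rich libraries and low in the other 3. Pdyn, the dynorphin precursor and so the ligand gene of Oprk1, had 13.1, 9.90 and 10.2 CPM in single-housed mice, against 7.63, 9.62 and 9.50 CPM in group-housed mice. Its groups did not overlap, but single-housed replicate 2 and group-housed replicate 2 were close (log2 difference 0.31, SE 0.144; adjusted p = 0.9999 by edgeR). Unlike Oprk1, Pdyn was at its lowest in group-housed replicate 1. Pomc, the endorphin precursor, had 40 to 52 counts in each library and means of 1.51 ± 0.0645 against 1.47 ± 0.262 CPM.

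Vipr1 (chromosome 9, 121551834 to 121582072, plus strand), which encodes a Gs-coupled receptor for VIP and PACAP, was the steadiest of the 10. It had 46.7, 44.3 and 47.9 CPM in single-housed mice, against 46.2, 49.8 and 48.5 CPM in group-housed mice. The groups overlapped, and the log2 difference of −0.057 had the narrowest interval of the group (SE 0.0708, interval −0.22 to 0.10). Only 8.50% of the genes tested varied less over the 6 libraries. The related PACAP receptor gene Adcyap1r1 was also steady, with 195 ± 0.848 CPM in single-housed mice, against 203 ± 7.97 CPM in group-housed mice. Its groups did not overlap, by a small margin (196.1 CPM at most against 196.6 CPM at least; log2 difference −0.057, SE 0.0665). Vip averaged 50.7 ± 9.43 against 54.5 ± 6.93 CPM and Adcyap1, the PACAP gene, 31.5 ± 8.23 against 30.2 ± 5.86 CPM. Both were lowest in the striatum-rich libraries. Vip had 44.6 to 46.7 CPM in these and 57.2 to 61.6 CPM in the others, and Adcyap1 23.6 to 27.5 and 32.6 to 41.0 CPM.

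Cckbr (chromosome 7, 112574334 to 112584852, plus strand), the main cholecystokinin receptor gene of the brain, had the highest level per length of the 10. It had 90.3, 102 and 112 CPM in single-housed mice, against 106, 115 and 113 CPM in group-housed mice. Single-housed replicate 3 lay within the group-housed range and the other single-housed libraries below it, for a log2 difference of −0.14 (SE 0.0897, interval −0.34 to 0.066). The 3 striatum-rich libraries were the lowest for Cckbr. Its difference was −0.07 (SE 0.073) with the striatal marker mean in the model. Without those 3 libraries, which leaves 1 single-housed against 2 group-housed, it was −0.029. The part of tissue composition in this difference was not tested. The peptide gene Cck had 353, 346 and 431 CPM in single-housed mice, against 442, 420 and 500 CPM in group-housed mice. Its log2 difference was −0.27 (SE 0.107, interval −0.51 to −0.027; adjusted p = 0.9999 by edgeR), so it did not pass over all genes, and single-housed replicate 3 overlapped the group-housed libraries. Cckar, the other cholecystokinin receptor gene, had 2 counts in single-housed replicate 1 and 0 in the other 5 libraries.

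Compared per length, the 10 genes spanned a wide range of levels. RPKM, the CPM divided by the deposited gene length in kilobases, averaged 42.9 for Cckbr over the 6 libraries, then 18.1 for Sstr2, 12.2 for Npy1r, 11.0 for Sstr1, 9.64 for Vipr1, 5.49 for Oprd1, 2.32 for Oprk1, 1.51 for Oxtr, 0.906 for Npy2r and 0.160 for Oprm1. Each of the 9 pairs of neighbours in this order was compared by an exact two-sided sign-flip permutation test of the log2 ratio over the 6 libraries. In 7 pairs the higher gene was above its neighbour in 6 of 6 libraries (adjusted p = 0.0402 for each, from the smallest exact permutation p that 6 libraries allow), with ratios between 1.14 for Sstr1 over Vipr1 and 6.08 for Npy2r over Oprm1. Npy1r and Sstr1 could not be separated (ratio 1.10, higher in 5 of 6 libraries, exact permutation p = 0.0938, adjusted p = 0.105), nor could Oprk1 and Oxtr (ratio 1.43, higher in 4 of 6 libraries, exact permutation p = 0.125, adjusted p = 0.125). The order rests on the deposited gene models: that of Sstr2 spans 1158 bases, 54% of the GENCODE exon bases, and that of Sstr1 3869 bases, 189% of them. Neighbours were paired by the means of these same libraries. The permutation p covers the spread between libraries and no error in gene length. The order was not recomputed with GENCODE lengths.

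**Figure D5:**
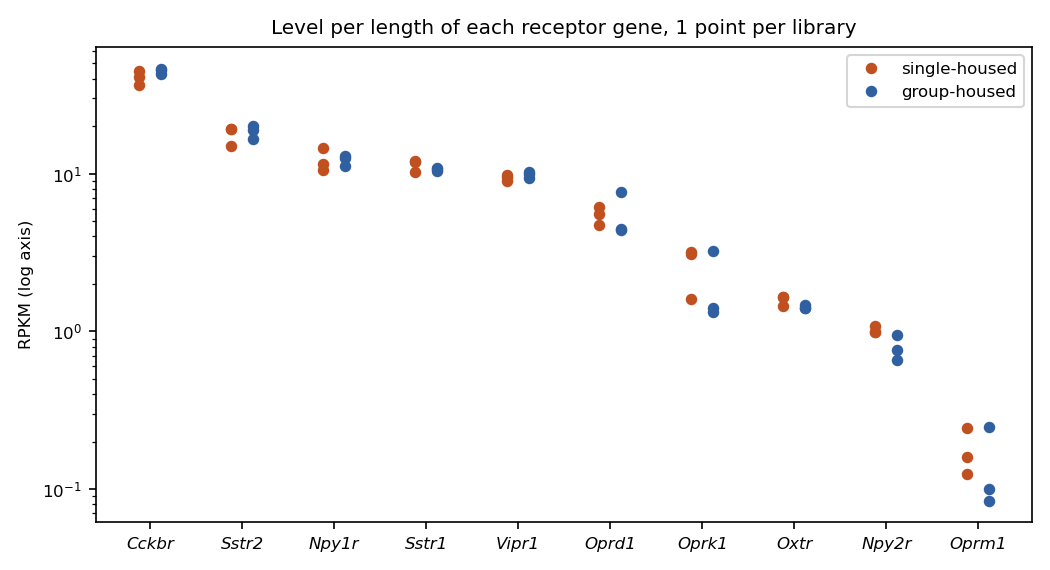
RPKM of each receptor gene on a log axis, ordered by its mean, 1 point per library (orange single-housed, blue group-housed). Cckbr lies highest with a mean of 42.9 and Oprm1 lowest with a mean of 0.160; the Oprk1 points straddle those of Oxtr.

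For the 3 receptor genes that varied most, the genes with the nearest profile over the 6 libraries were found by the root mean square difference of mean-centred log2 CPM. For Oprk1 these were Iqgap3 (0.151), Npbwr1 (0.154) and Abca8a (0.162). Npbwr1, itself a receptor gene for neuropeptides B and W, had 2.08, 2.60 and 1.29 CPM in single-housed mice, against 1.95, 0.949 and 0.984 CPM in group-housed mice, high where Oprk1 was high. For Oprd1 they were Slc26a2 (0.0573), Brwd3 (0.0681) and Stc2 (0.0719), all highest in group-housed replicate 2. For Oprm1 the distances were larger, with Gbgt1 (0.192), Kdelr3 (0.202) and Snord69 (0.218), all at under 1 CPM. Oprm1 itself had 7 to 21 counts, so counting error enters its profile. The nearest genes were picked from all 15258 tested, skipping predicted genes, so some close profiles would be found for any gene. The likeness is a description of 6 libraries.

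The wider peptide system gave no called gene either. Of the 12 ligand genes 9 were tested and 0 called, with 5 above 0 and 4 below (median log2 difference 0.030). Of 12 related receptor genes 7 were tested and 0 called, 3 above and 4 below (median −0.036). Of 15 receptor genes for other peptides 14 were tested and 0 called, 8 above and 6 below (median 0.081); those of smallest p were Tacr3, a neurokinin B receptor gene (1.08, SE 0.540), Nmbr, the neuromedin B receptor gene (0.79, SE 0.423), and Mchr1, a melanin-concentrating hormone receptor gene (0.21, SE 0.112). Tacr3 was at 2.47 CPM in single-housed replicate 1 and at 0.393 to 1.05 CPM in the other libraries.

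Of 20 genes for G proteins, arrestins, receptor kinases and GIRK channels 19 were tested and 0 called, 9 above and 10 below (median −0.014). Gnal, a G protein alpha subunit gene abundant in striatum, differed by 0.29 (SE 0.168), with 337, 248 and 203 CPM in single-housed mice, against 236, 212 and 195 CPM in group-housed mice, the 3 striatum-rich libraries again being the highest. Grk2, which encodes a kinase that desensitises receptors and is listed as Adrbk1, had 360, 355 and 360 CPM in single-housed mice, against 378, 389 and 390 CPM in group-housed mice, groups that did not overlap (−0.11, SE 0.0635). Kcnj9, a GIRK channel gene, differed by −0.090 (SE 0.0955). Of 6 genes for peptide processing 6 were tested and 0 called, 1 above and 5 below (median −0.092). Those of smallest p were Pcsk1n, which encodes an inhibitor of a prohormone convertase, at −0.28 (SE 0.124), Scg5 at −0.11 (SE 0.0949) and Pcsk1, the convertase itself, at −0.18 (SE 0.227).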

How the data were processed

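Per the labels' protocols, RNA was isolated on columns and made into stranded mRNA libraries. The authors deposited raw counts per gene; FastQC, STAR and featureCounts with build mm9 are named in the submitters' processing notes. For versions, annotation release and strand setting, the entry is: not given in the sources used here. Per gene, the deposited length column holds exon bases per gene, per the file headers, and was used for RPKM. Members, lists and alternatives were chosen with earlier results of these data known. All members, ligand genes and related receptor genes could be named, the 3 genes of smallest p in the other lists, and the 3 nearest genes of the 3 most variable members.

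The test was edgeR's quasi-likelihood test (edgeR 4.0.16, R 4.3.3) with TMM scaling, a minimum count of 10 (15258 of 23284 genes kept) and Benjamini-Hochberg adjustment at 0.05. Standard errors and 95% intervals came from the F statistic. The floor of 3 counts (0.0897 to 0.113 CPM) covers counting error only. Older symbols were matched through RefSeq. Libraries within a group differed beyond sampling noise (chi-square per degree of freedom 10.2 to 40.6). Alternatives were other scalings and filters, DESeq2 1.42.0, limma-voom (limma 3.58.1), a replicate block, covariates and left-out libraries.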

Additional observations from a re-analysis of the deposited data

How the results depend on the processing

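No alternative called any of the 10 receptor genes. Of 169 differences under alternatives, 151 kept their direction and 18 reversed, and 0 came past the threshold. The reversed values belong to genes near 0 or of few counts. Npy1r (−0.0029) was 0.000222 with library totals, 0.105 with the striatal covariate, 0.195 without the 3 striatum-rich libraries and 0.106 with the claustrum covariate. Oprd1 (−0.0079) was 0.032 with the replicate block, 0.029 with limma-voom, 0.071 with the striatal covariate and 0.056 with the claustrum covariate. Oprm1 (0.27) was −0.054 without the 3 striatum-rich libraries. With 1 library left out, the ranges were −0.149 to 0.0912 for Npy1r, −0.146 to 0.303 for Oprd1, −0.0328 to 0.928 for Oprm1 and −0.145 to 0.0392 for Sstr2. They were 0.195 to 0.963 for Oprk1, −0.215 to −0.0618 for Cckbr, 0.0576 to 0.174 for Sstr1, −0.0854 to −0.018 for Vipr1, 0.261 to 0.525 for Npy2r and 0.118 to 0.221 for Oxtr. Oprm1 was not tested at a mean CPM above 1.

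Over all genes tested, 0 were called; DESeq2 called 8, the fit without the 3 striatum-rich libraries 4 (1 library against 2) and the length balance as a covariate 2. With 1 library left out, 0 to 1 genes were called, with 1 called when either group-housed replicate 1 or 2 was absent. The cause was not tested. Genes above 0 numbered 3 to 6 among the ligands and 0 to 3 among the processing genes with 1 library left out. The mean log2 ratio, with 1 library left out, was 0.384 to 0.632 for Oprk1 over Oxtr and 0.104 to 0.175 for Npy1r over Sstr1. Deviations of same-numbered libraries from their group means had correlations across genes of 0.271, −0.318 and 0.170. Deviations within a group sum to 0, which ties these values together. They cannot tell whether same-numbered libraries were handled together. The replicate block called 0 genes and 0 receptors. A fit with a lone single-housed library takes its spread from the group-housed ones.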
